A study of Mus musculus with 8 samples.

Results

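Serpins are a family of proteins that share 1 fold, and most of them trap and inactivate a protease. The family was taken from the deposited expression table as every gene symbol that starts with Serpin and a letter from a to i, which names the clade. This gave 63 of the 23952 symbols in the table, and 1 transcript was kept per symbol, the one with the highest mean over all libraries. Of the 63 serpins, 21 reached 1 RPKM in at least 1 of the 8 libraries and 42 did not. RPKM is reads per kilobase of transcript, scaled to the sequencing depth, so levels can be set beside each other between genes.

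The samples were tumors grown from LLC, a cell line of mouse Lewis lung carcinoma, under the skin of both flanks of mice. The tumor cells had been transfected with the red fluorescent protein dTomato and kept in G418, and the hosts were transgenic Col1a1-GFP mice, in which green fluorescence is tied to a collagen gene. Collagen labelled with Alexa 647 was injected into the tumors, and cells were sorted 24 h later. The study addressed how macrophages of a tumor take up and degrade collagen, and it has 4 groups of 2 libraries each. Total tumor is RNA of whole tumors. LLC is the dTomato+ sort and Fibroblast the GFP+ sort. TAM, labelled as M2 tumor-associated macrophages, is the sort of dTomato-;GFP-;F4/80+;collagen+ cells. Of the sorted groups, TAM alone was gated on collagen uptake, and Fibroblast was gated on a reporter linked to Col1a1. Neither the strain, sex and age of the mice nor whether both libraries of a group stem from different animals is given in the sources used here. The p-values below therefore measure only the spread between these libraries.

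An inhibitory serpin offers a protease a loop as bait. When the loop is cut, the serpin folds around the protease and holds it, so 1 serpin molecule is spent for each protease molecule. Secreted serpins control blood clotting, fibrinolysis (the dissolving of clots by plasmin), and the start of the complement cascade. Serpins of clade B stay mostly inside cells, where they face proteases from granules and lysosomes. A few members have kept the fold without the inhibition, such as the collagen chaperone Serpinh1 and the secreted factor Serpinf1.

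Estimated depth was between 4.29 and 10.37 M reads, and in each group library 1 was the deeper of the pair. At 1 RPKM a transcript of 2 kb then rests on 8.58 to 20.7 reads. Markers followed the sorts in part. The 8 macrophage markers summed to 13285 and 9813 RPKM in TAM and to between 53.2 and 313 RPKM in LLC and Fibroblast. The 8 fibroblast markers summed to 23572 and 22144 RPKM in Fibroblast, to 3746 and 4995 RPKM in LLC, and to 129 and 630.1 RPKM in TAM. The fibroblast marker sum was thus higher in LLC 2 and TAM 2 than in LLC 1 and TAM 1. Its member Lum was at 434 RPKM in LLC 1 and 422 RPKM in LLC 2. The macrophage marker sum was also higher in LLC 2 than in LLC 1 (313 against 53.2 RPKM). The source of these transcripts was not tested. Pericyte markers summed to 197 and 149.8 RPKM in Fibroblast and to between 1.62 and 19.8 RPKM elsewhere. Endothelial markers summed to 55.9 and 51.8 RPKM in Fibroblast, 37.2 and 32.0 RPKM in Total tumor, and between 1.40 and 28.2 RPKM in LLC and TAM. Kdr and Tek carried the Fibroblast sum. Pecam1 was at 6.51 and 3.58 RPKM in Fibroblast, 14.0 and 14.7 RPKM in Total tumor, and 10.8 and 16.5 RPKM in TAM. Emcn, Tie1 and Cdh5 had their highest mean in Total tumor. The platelet list was led in TAM (3286 and 1742 RPKM) by Pf4 and Ppbp, while its member Gp9 was listed at 0 in all 8 libraries. Its members Itga2b and Gp1bb were lower in TAM than in Fibroblast. Itga2b was at 0.240 and 1.31 against 4.06 and 4.51 RPKM, and Gp1bb at 1.07 and 0.605 against 10.7 and 10.3 RPKM. Neutrophil, mast cell, and T and NK cell markers were highest in Total tumor, at 137 and 601, at 35.4 and 68.7, and at 48.7 and 12.4 RPKM in sum. S100a8 and S100a9 carried the neutrophil sum, while Csf3r (32.0 and 29.9 RPKM in TAM, 12.2 and 15.5 RPKM in Total tumor) and Mmp8 (17.5 and 13.2 against 3.27 and 4.16 RPKM) were highest in TAM. Keratinocyte markers summed to at most 8.91 RPKM and hepatocyte markers to at most 7.90 RPKM in any library. No marker list for LLC cells was used.

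Serpin transcripts were most abundant in Fibroblast, where Serping1, Serpinh1, Serpina3n and Serpinf1 made up most of them. The summed serpin level was 5603 and 5665 RPKM in Fibroblast, 1265 and 1171 RPKM in LLC, 991 and 1306 RPKM in Total tumor, and 303 and 354 RPKM in TAM. The serpin share was taken of a library's RPKM summed over the 1 kept transcript of each symbol. It was 1.67% and 1.76% in Fibroblast and 0.360% and 0.366% in LLC. In Total tumor it was 0.309% and 0.272%, and in TAM 0.0674% and 0.0885%. The groups did not overlap except LLC and Total tumor on the summed level. In bulk samples such as these, fewer cells of a type and less RNA per cell cannot be told apart. The make-up of the sum also differed between groups. Serping1 was 31.3% and 36.0% of the serpin sum in Fibroblast, whereas Serpinf1 was 51.9% and 43.5% of it in LLC. In TAM, Serpinb6a alone was 65.8% and 44.8%. Serping1 was 1.72% and 11.8% of it in the TAM libraries.

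**Figure D1:**
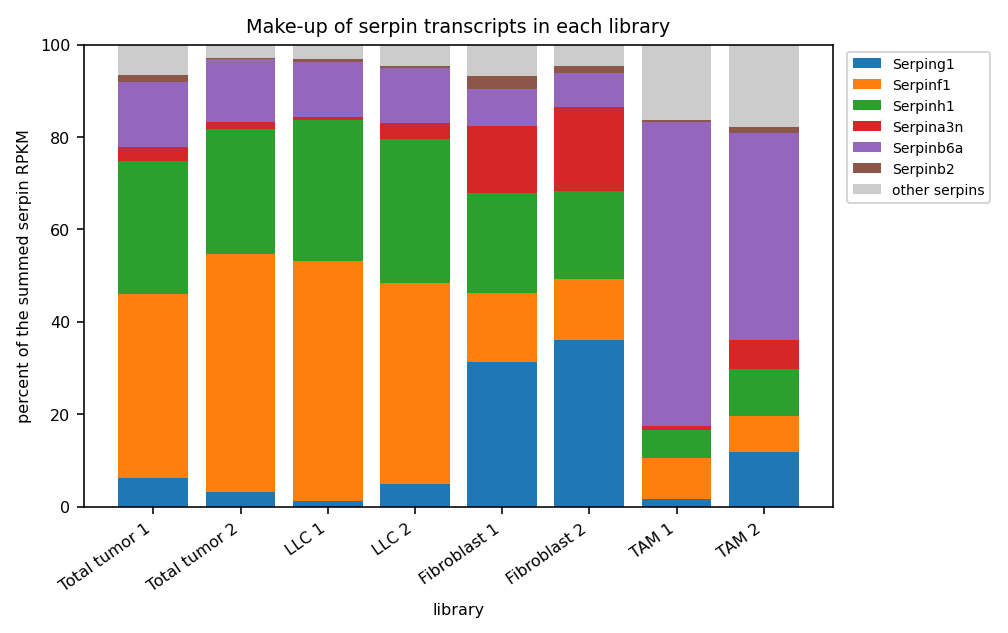
Make-up of serpin transcripts in each library. Each bar is 1 library and its segments give the percent of the summed serpin RPKM taken by each of 6 serpins and by all others; Serping1 takes 31.3% and 36.0% in Fibroblast, Serpinf1 51.9% and 43.5% in LLC, and Serpinb6a 65.8% and 44.8% in TAM.

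Of the 21 detected serpins, 19 had their highest mean among the sorted groups in Fibroblast, 1 in LLC (Serpinb9) and 1 in TAM (Serpinb8). Serpina10, Serpini1, Serpina3c, Serpina3h, Serpina3i and Serpina3m reached 1 RPKM in Fibroblast only, so the detection limit itself placed them there. The same share over all detected genes was not computed, so this count only describes the family. Testing was done for the 19 serpins that reached 1 RPKM in at least 2 libraries, on log2(RPKM + 1) with limma over all 13311 genes that did so, and a gene was called at a Benjamini-Hochberg adjusted p under 0.05. Differences on this scale understate the change of low genes. Serpina3c, Serpina3h, Serpina3i and Serpina3m reached 1 RPKM in Fibroblast only and entered the test through that group, so their direction was fixed in advance. Outside Fibroblast, Serpinb9b reached 1 RPKM in LLC 1 only (1.30 RPKM), so it too needed Fibroblast to enter the test. It is still part of the counts below that leave out those 4. Counts over tested serpins therefore describe the family and support nothing.

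Between TAM and Fibroblast, 14 of 19 serpins were lower in TAM and 1 (Serpinb8) was higher, where 17.3% of all tested genes were lower and 17.4% higher. Without the 4 serpins that reached 1 RPKM in Fibroblast only, 10 of 15 were lower, Serpinb9b among them, and 1 was higher. Between Fibroblast and LLC, 14 serpins were higher in Fibroblast and 0 were lower, with 13.0% of all genes higher and 25.7% lower. Without the same 4, 10 of 15 were higher, again with Serpinb9b among them. Between TAM and LLC, 3 serpins were higher in TAM (Serpinb8, Serpina3g and Serpinb1a) and 2 were lower (Serpinf1 and Serpinh1), with 15.4% of all genes higher and 27.5% lower. In that order of comparisons the tested serpins had median differences of -2.30, 1.63 and 0.00, against 0.13, -0.46 and -0.38 over all tested genes. The 3 comparisons share libraries.

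By the stricter rule of being called higher than in both other sorted groups, 13 serpins were highest in Fibroblast, 1 in TAM (Serpinb8) and 0 in LLC. Without the 4 that reached 1 RPKM in Fibroblast only, 9 of 15 were highest there, Serpinb9b among them. Over all tested genes the shares were 9.0% for Fibroblast, 11.4% for TAM and 15.8% for LLC. Among the 13 were Serping1, Serpinh1, Serpina3n, Serpinb6a, Serpinb2, Serpine2, Serpina3c, Serpinb1a, Serpinb9b, Serpina3i, Serpina3h and Serpina3m. Leaving out Fibroblast 1 gave 5 such serpins and leaving out Fibroblast 2 gave 7, partly because Serpina3c, Serpina3h, Serpina3i and Serpina3m then reached 1 RPKM in too few libraries to be tested. Without a Fibroblast library, the serpins lower in TAM than in Fibroblast numbered 9 either way, and those higher in Fibroblast than in LLC numbered 6 (without Fibroblast 1) or 9 (without Fibroblast 2). Without LLC 2 and TAM 2, the LLC and TAM libraries with the higher fibroblast marker sums, several calls between sorted groups ended. TAM minus LLC was then 1.92 for Serpinb1a and 2.40 for Serpina3g, and Fibroblast minus LLC was 1.57 for Serpinh1. The serpins lower in TAM than in LLC numbered 4 without Total tumor 1, Total tumor 2 or TAM 2.

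The scale of the table matters for the shares over all genes. With upper-quartile rescaling the median of all genes moved from -0.46 to -0.03 for Fibroblast minus LLC, and the share of calls that were higher went from 33.6% to 60.9%; quantile normalization gave 47.5%. For TAM minus Fibroblast upper-quartile rescaling moved that share from 50.2% to 39.7%, and for TAM minus LLC quantile normalization moved it from 35.9% to 46.3%. The serpin counts moved less. Under upper-quartile rescaling and quantile normalization, 15 and 13 serpins were lower in TAM than in Fibroblast, 15 and 14 were higher in Fibroblast than in LLC, and 3 were higher and 2 lower in TAM than in LLC under each.

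**Figure D2:**
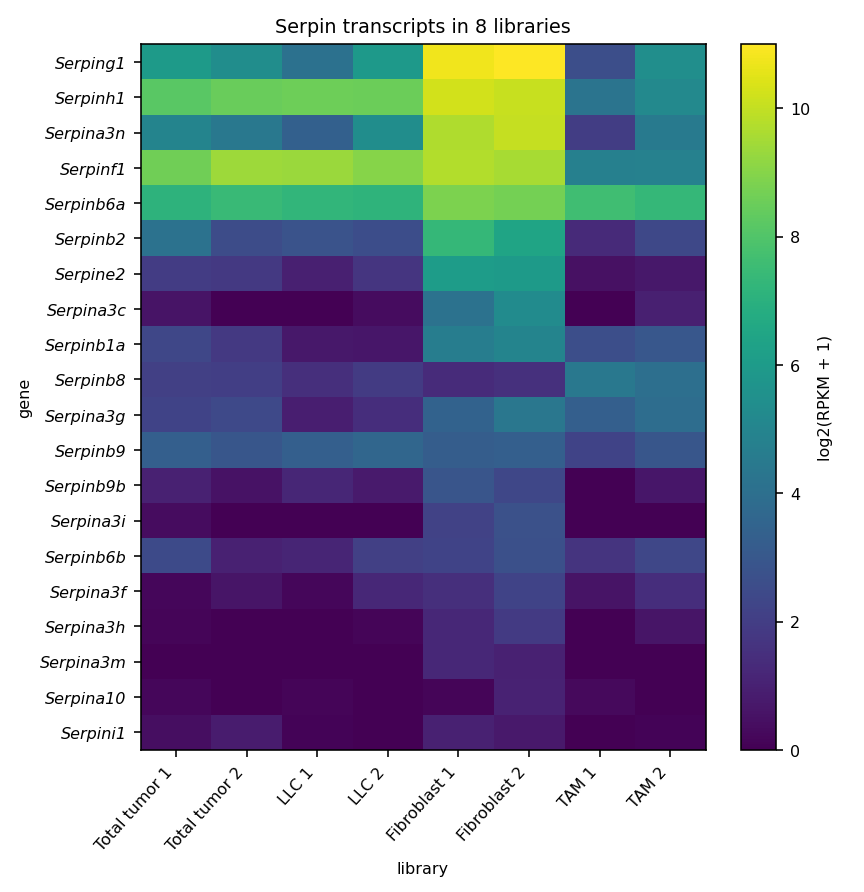
Level of 20 detected serpins in the 8 libraries as log2(RPKM + 1), from dark (0) to bright. The brightest cells are Serping1 in Fibroblast (1756 and 2039.6 RPKM), and Serpinb8 is the row in which TAM is the brightest group (20.2 and 15.4 RPKM).

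Serping1, the C1 inhibitor, blocks the first proteases of the complement cascade and also plasma kallikrein and factor XIIa. It was the most abundant serpin of Fibroblast, at 1756 and 2039.6 RPKM, and was at 16.3 and 58.5 RPKM in LLC, 5.22 and 41.9 RPKM in TAM, and 62.4 and 40.5 RPKM in Total tumor. The Fibroblast libraries stood above all others, and the LLC, TAM and Total tumor values overlapped. The mean was 1898 ± 201 RPKM (SD, n = 2) in Fibroblast, which was 50.7 times that of LLC and 80.6 times that of TAM. The log2 difference was 5.88 (SE 0.89) for Fibroblast minus LLC (adjusted p = 0.00221) and -6.86 (SE 0.89) for TAM minus Fibroblast (adjusted p = 0.000654), and both calls held under all 20 alternatives. Their size moved with single libraries: Fibroblast minus LLC was 4.99 without LLC 1 and 6.77 without LLC 2, and TAM minus Fibroblast -5.46 without TAM 1 and -8.25 without TAM 2. TAM and LLC did not differ beyond their spread (-0.98, adjusted p = 0.412, 95% interval -3.04 to 1.09). In both of these groups library 2 was above library 1. Its targets C1ra and C1s1, the proteases of the first complement complex, were high in the same group. C1ra was at 230.2 and 276 RPKM in Fibroblast, 16.3 and 20.8 RPKM in LLC, and 7.21 and 13.1 RPKM in TAM (TAM minus Fibroblast -4.55, adjusted p = 0.000110). C1s1 was at 401 and 486 RPKM in Fibroblast, 19.5 and 30.7 RPKM in LLC, and 1.45 and 9.78 RPKM in TAM (-6.43, adjusted p = 0.000226). Masp1, a protease of the lectin pathway, was at 4.78 and 7.62 RPKM in Fibroblast, 6.46 and 9.10 RPKM in LLC, and 0 and 0.326 RPKM in TAM. Its Fibroblast and LLC values interleaved (Fibroblast minus LLC -0.30, adjusted p = 0.748). As for C1ra and C1s1, TAM was lower than Fibroblast (-2.62, adjusted p = 0.0163).

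**Figure D3:**
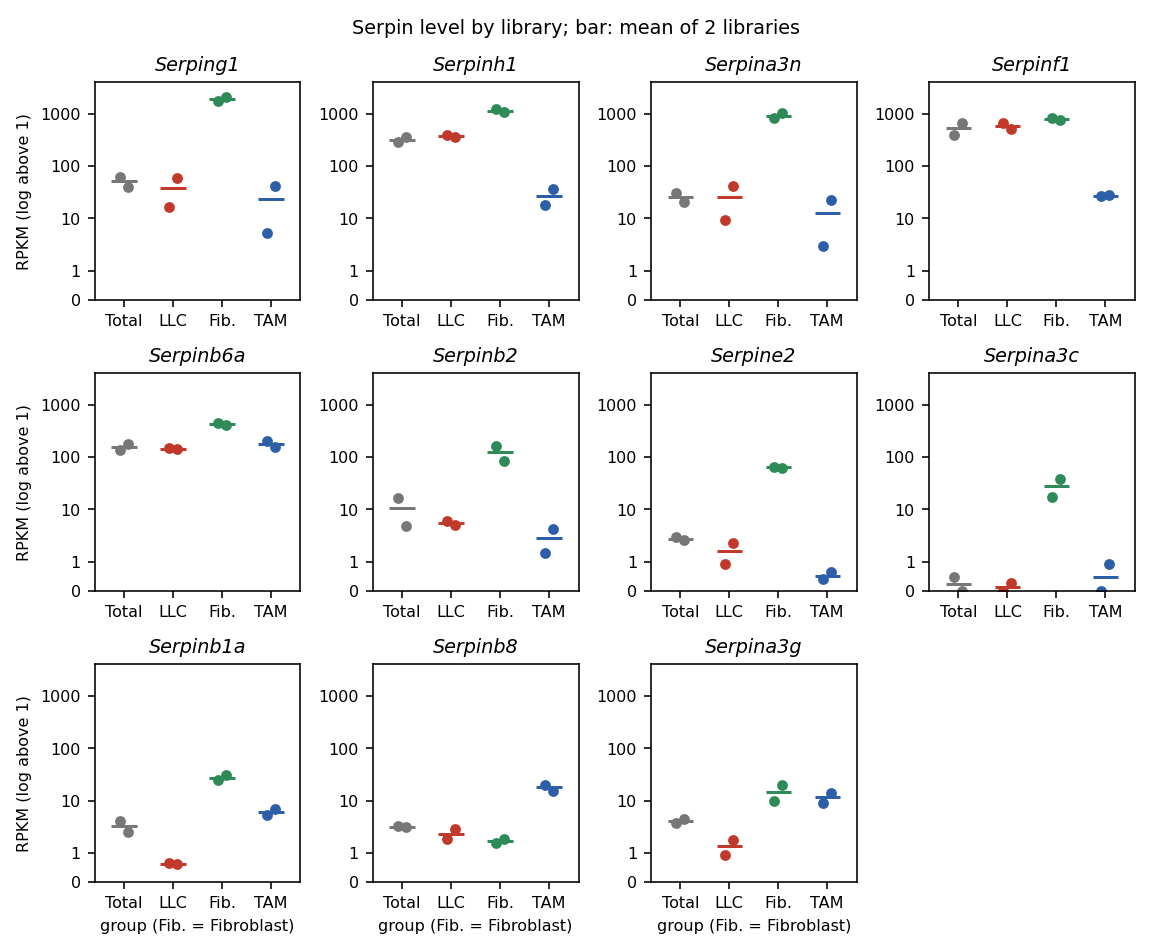
Level of 11 serpins by library in RPKM, on an axis that is logarithmic above 1 and linear below. Points are single libraries and bars the mean of 2; Fibroblast points lie above all others for 9 of the panels, Serpinb8 has its highest points in TAM, and the Serpina3g points of Fibroblast and TAM interleave.

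Serpine2 and Serpinb2, which act in clotting and fibrinolysis, were both highest in Fibroblast. Serpinb2 can block the plasminogen activator Plau, and Serpine2 (protease nexin) blocks thrombin and the plasminogen activators at the cell surface. Both were higher in Fibroblast than in LLC and in TAM, and neither was called between TAM and LLC. Of the other serpins of this role, Serpinc1, Serpind1, Serpinf2, Serpina5 and Serpina10 were not tested.

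Serpine2 was at 65.7 and 61.7 RPKM in Fibroblast, 2.93 and 2.58 RPKM in Total tumor, 0.939 and 2.27 RPKM in LLC, and 0.399 and 0.654 RPKM in TAM. The pair of Fibroblast libraries agreed closely and stood far above the rest. The log2 difference was 4.68 (SE 0.32) for Fibroblast minus LLC (adjusted p = 0.000272) and -5.41 (SE 0.32) for TAM minus Fibroblast (adjusted p = 0.000104). Both held under all 20 alternatives. TAM minus LLC was not called (-0.73, adjusted p = 0.103, 95% interval -1.47 to 0.01), though both TAM values lay below both LLC values.

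Serpinb2 was at 161 and 85.4 RPKM in Fibroblast, 6.07 and 4.98 RPKM in LLC, 1.49 and 4.20 RPKM in TAM, and 16.6 and 4.85 RPKM in Total tumor. Fibroblast was again above every other library, with a wider spread between its libraries (123 ± 53.7 RPKM, SD, n = 2). The log2 difference was 4.19 (SE 0.59) for Fibroblast minus LLC (adjusted p = 0.00159) and -5.04 (SE 0.59) for TAM minus Fibroblast (adjusted p = 0.000393), and both held under all 20 alternatives.

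The promoters of Serpine2 and Serpinb2 are shown because these genes shared the Fibroblast pattern and differ in base composition. They are the 250 bases before the annotated start, 5′ to 3′ on the gene's strand, from RefSeq on build GRCm38.p6, while the expression table was made on mm9. Serpine2 is at chr1:79858666-79858915 on the minus strand and the upstream start of Serpinb2 at chr1:107511173-107511422 on the plus strand. Capitals mark motifs found on either strand.
Serpine2: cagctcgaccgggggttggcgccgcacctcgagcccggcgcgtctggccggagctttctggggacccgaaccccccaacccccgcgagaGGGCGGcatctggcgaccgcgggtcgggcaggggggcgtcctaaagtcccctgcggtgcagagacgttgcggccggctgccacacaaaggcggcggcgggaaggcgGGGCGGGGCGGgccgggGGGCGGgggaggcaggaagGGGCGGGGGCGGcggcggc
Serpinb2: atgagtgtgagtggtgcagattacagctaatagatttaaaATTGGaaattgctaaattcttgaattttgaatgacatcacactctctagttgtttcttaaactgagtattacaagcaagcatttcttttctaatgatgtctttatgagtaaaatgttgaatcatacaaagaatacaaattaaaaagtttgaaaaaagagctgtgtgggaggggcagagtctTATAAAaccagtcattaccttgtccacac
The Serpine2 window is 78.8% G and C, where the median promoter has 52.4%, and holds 6 matches to the GC box GGGCGG, of which the pair that begins 55 and 50 bases before the start overlaps by 1 base. The Serpinb2 window is 32.4% G and C and holds a TATA box, TATAAA, that begins 29 bases before the start, and a CCAAT box, CCAAT, on the other strand 210 bases before it. Among 32851 promoters of the same length, GGGCGG occurs in 32.7%, TATAAA in 12.4% and CCAAT in 33.8%. A match of letters describes the sequence and shows no binding.

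The proteases that these serpins face did not follow 1 pattern. Plat, tissue plasminogen activator, was at 196 and 157 RPKM in Fibroblast, 30.8 and 37.2 RPKM in LLC, and 2.46 and 4.70 RPKM in TAM. It was thus high where Serpine2 and Serpinb2 were high (TAM minus Fibroblast -5.31, adjusted p = 0.000104; Fibroblast minus LLC 2.34, adjusted p = 0.00138). Plau, urokinase, was at 102 and 143 RPKM in Fibroblast, 62.6 and 77.1 RPKM in LLC, and 74.3 and 78.7 RPKM in TAM, and none of the 3 sorted comparisons was called. Plaur, the receptor that holds urokinase at the cell surface, was at 136 and 119.6 RPKM in TAM against 25.5 and 22.0 RPKM in Fibroblast and 41.8 and 34.5 RPKM in LLC (TAM minus Fibroblast 2.38, adjusted p = 0.00214).

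Serpinh1 and Serpinf1, which do not inhibit proteases as their main role, were the most abundant serpins outside Fibroblast and TAM, and both were low in TAM. Serpinh1, known as Hsp47, binds procollagen in the endoplasmic reticulum and helps it fold. It was at 1203 and 1082 RPKM in Fibroblast, 384 and 364 RPKM in LLC, 286 and 354 RPKM in Total tumor, and 18.0 and 35.6 RPKM in TAM. Fibroblast, LLC and TAM were fully apart. TAM minus Fibroblast was -5.44 (SE 0.37, adjusted p = 0.000106) and TAM minus LLC -3.83 (SE 0.37, adjusted p = 0.000239), and both held under all 20 alternatives. Fibroblast minus LLC was 1.61 (SE 0.37, adjusted p = 0.0124), a ratio of means of 3.05. That call ended without LLC 1 (adjusted p = 0.0692), LLC 2 (0.0678), Fibroblast 1 (0.0837) or Fibroblast 2 (0.0712), and without LLC 2 and TAM 2 (0.106), in a range from 0.00174 to 0.106. The direction was the same under each of them.

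Serpinf1, pigment epithelium-derived factor, is a secreted protein known for blocking the growth of blood vessels. It was at 839 and 747 RPKM in Fibroblast, 657 and 509.6 RPKM in LLC, 393 and 673 RPKM in Total tumor, and 26.7 and 27.9 RPKM in TAM. Fibroblast minus LLC was not called (0.45, adjusted p = 0.344, 95% interval -0.38 to 1.28), though both Fibroblast values lay above both LLC values. TAM was lower than both, with differences of -4.81 (SE 0.36) against Fibroblast (adjusted p = 0.000116) and -4.36 (SE 0.36) against LLC (adjusted p = 0.000151), under all 20 alternatives. The list of serpins without protease inhibition as their main role holds 4 further members, Serpinb5, Serpina6, Serpina7 and Serpina12, which were not detected.

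The collagen chains and folding enzymes that work with Serpinh1 were lower in TAM as well. Of 22 tested, 17 had lower levels in TAM than in Fibroblast (17.3% of all genes) and 0 were higher, and 12 were lower than in LLC (27.5% of all genes) and 0 were higher. Between Fibroblast and LLC, 9 were higher in Fibroblast and 1 was lower (13.0% and 25.7% of all genes). The medians were -4.26, -1.56 and 0.94. Col1a1, a chain of type I collagen and the gene behind the sort, was at 5315 and 4200.4 RPKM in Fibroblast, 76.2 and 192 RPKM in LLC, and 18.0 and 123 RPKM in TAM. Col1a2, Col5a2 and Sparc had TAM minus Fibroblast differences of -6.62, -6.36 and -6.24. Plod2, which hydroxylates lysines of collagen, was the gene lower in Fibroblast than in LLC (-1.23, adjusted p = 0.0164), at 69.0 and 68.7 against 138 and 192 RPKM. The Fibroblast minus LLC difference was 1.61 for Serpinh1 and 5.28 for Col1a1, and these were not tested against each other.

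The promoter of Serpinh1, at chr7:99353240-99353489 on the minus strand in GRCm38.p6, is shown because this serpin was high in both Fibroblast and LLC.
Serpinh1: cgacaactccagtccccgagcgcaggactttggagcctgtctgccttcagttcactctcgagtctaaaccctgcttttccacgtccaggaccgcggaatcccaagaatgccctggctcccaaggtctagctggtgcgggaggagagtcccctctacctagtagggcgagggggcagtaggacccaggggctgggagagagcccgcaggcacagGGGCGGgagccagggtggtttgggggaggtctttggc
It is 63.6% G and C, and the capitals mark 1 GC box that begins 37 bases before the start. The other 4 motifs searched were the TATA box, the CCAAT box, the AP-1 element with the letters TGAGTCA and the STAT element with the letters TTCNNNGAA, and none of them occurs in this window.

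The Serpina3 genes form a row on chromosome 12 and descend from repeated duplication; in mouse they stand in for the single human antichymotrypsin gene. Of the 25 clade A serpins, 8 were detected and 7 tested, and all 7 tested were Serpina3 genes. Serpina3n inhibits granzyme B and other serine proteases and is known as an acute-phase protein. It was at 810.4 and 1033 RPKM in Fibroblast, 9.24 and 41.0 RPKM in LLC, 2.97 and 22.2 RPKM in TAM, and 30.1 and 20.4 RPKM in Total tumor. Only Fibroblast stood apart. The difference Fibroblast minus LLC was 5.47 (SE 0.87, adjusted p = 0.00280) and TAM minus Fibroblast -6.58 (SE 0.87, adjusted p = 0.000740), and both held under all 20 alternatives. As for Serping1, library 2 was the higher one in LLC and in TAM. The first difference was 4.45 without LLC 1 and 6.48 without LLC 2, and the second -5.30 without TAM 1 and -7.85 without TAM 2.

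Serpina3c was at 16.9 and 38.4 RPKM in Fibroblast, 0 and 0.276 RPKM in LLC, 0 and 0.927 RPKM in TAM, and 0.474 and 0 RPKM in Total tumor. It was the only detected serpin besides Serpina3i and Serpina3h that was above 2 RPKM in a Fibroblast library and below 1 RPKM in every library of the other groups. It was higher in Fibroblast than in LLC by 4.55 (SE 0.48, adjusted p = 0.000550) and TAM minus Fibroblast -4.26 (SE 0.48, adjusted p = 0.000332). Serpina3i was at 3.47 and 5.68 RPKM in Fibroblast, was listed at 0 in all LLC and TAM libraries, and was at 0.274 and 0 RPKM in Total tumor. Serpina3h was at 1.31 and 2.67 RPKM in Fibroblast and at most 0.545 RPKM elsewhere, and Serpina3m at 1.34 and 1.02 RPKM in Fibroblast and 0 in the other 6 libraries. All 4 were called higher in Fibroblast than in LLC and TAM, a direction that their entry into the test through Fibroblast fixes. Serpina3h lost its call against TAM without TAM 1 (adjusted p = 0.147), with a pseudocount of 0.1 (0.0666), with quantile normalization (0.0644) and without LLC 2 and TAM 2 (0.0669), in a range from 0.00949 to 0.147. Against LLC it lost the call without LLC 1 (0.0682) and without LLC 2 and TAM 2 (0.0746), in a range from 0.00636 to 0.0746. Without LLC 2 and TAM 2, Serpina3m lost its calls against TAM (adjusted p = 0.0925) and LLC (0.0956).

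Serpina3g, which inhibits lysosomal cathepsins and is known from activated lymphocytes and macrophages, had another order. It was at 9.96 and 19.4 RPKM in Fibroblast, 9.11 and 14.1 RPKM in TAM, 3.65 and 4.45 RPKM in Total tumor, and 0.914 and 1.75 RPKM in LLC. Fibroblast and TAM interleaved (-0.28, adjusted p = 0.639, 95% interval -1.18 to 0.63), and LLC was below both. Against LLC, Fibroblast was higher by 2.70 (SE 0.39, adjusted p = 0.00181). TAM minus LLC was 2.43 (SE 0.39, adjusted p = 0.00196), and this call ended without LLC 2 and TAM 2 (adjusted p = 0.0530, range 0.00132 to 0.0530). Serpina3f, at 1.79 and 3.62 RPKM in Fibroblast, 0.515 and 1.75 RPKM in TAM, and 0.142 and 1.37 RPKM in LLC, was called in no comparison between sorted groups.

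Near-identical copies limit how reads can be assigned within this row. Of the 50-base windows of each transcript, 6.90% for Serpina3n, 4.25% for Serpina3c, 12.1% for Serpina3f, 15.4% for Serpina3i, 16.0% for Serpina3g and 19.1% for Serpina3m also occur in transcripts of other genes. The sources used here do not give how the deposited values treat such reads, so the low values of Serpina3f, Serpina3h, Serpina3i and Serpina3m are uncertain. For Serping1, Serpinh1, Serpinf1, Serpine2 and Serpinb2 the share is 0%.

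3 promoters of the row are shown to set a pair with the Fibroblast pattern, Serpina3n and Serpina3c, beside Serpina3g. On GRCm38.p6 they are at chr12:104406458-104406707 (plus strand), chr12:104153873-104154122 (minus strand) and chr12:104235897-104236146 (plus strand).
Serpina3n: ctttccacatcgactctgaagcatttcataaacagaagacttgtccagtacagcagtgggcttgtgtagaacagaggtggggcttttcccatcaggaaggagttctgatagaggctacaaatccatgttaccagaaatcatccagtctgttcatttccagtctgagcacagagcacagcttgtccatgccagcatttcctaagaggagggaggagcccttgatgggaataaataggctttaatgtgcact
Serpina3c: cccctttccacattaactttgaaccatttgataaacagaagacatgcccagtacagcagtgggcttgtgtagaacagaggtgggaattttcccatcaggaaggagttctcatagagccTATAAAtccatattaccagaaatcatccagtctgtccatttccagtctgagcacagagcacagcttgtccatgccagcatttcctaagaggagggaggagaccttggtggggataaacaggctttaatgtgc
Serpina3g: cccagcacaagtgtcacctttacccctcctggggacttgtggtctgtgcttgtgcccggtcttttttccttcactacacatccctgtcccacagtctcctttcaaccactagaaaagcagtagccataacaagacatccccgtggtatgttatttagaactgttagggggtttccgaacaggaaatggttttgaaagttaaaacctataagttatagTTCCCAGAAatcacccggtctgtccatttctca
The promoters of Serpina3n and Serpina3c match in 229 of 253 aligned positions (90.5%), and each matches that of Serpina3g in 47.0% and 47.9%. The promoter of Serpina3i, which also had the Fibroblast pattern, matches them in 63.1% and 65.9%. That of Serpina3f, called in no comparison between sorted groups, matches them in 63.0% and 62.6%. A link between promoter identity and level was not tested. The capitals mark a TATA box 132 bases before the start of Serpina3c and a STAT element 33 bases before that of Serpina3g, and none of the 5 motifs occurs in the Serpina3n window. TTCNNNGAA occurs in 7.02% of all 32851 promoters. It occurs in the windows of 5 of the 15 detected serpins with a promoter in the table (Serpina3f, Serpina3g, Serpina3i, Serpinb2 and Serpinb6a). Some of these serpins have 2 windows, and the Serpina3 genes are duplicates. The first share counts promoters and the second genes, so they were not compared.

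Clade B, with 27 members of which 7 were detected, was the clade most abundant in TAM, at 232 and 197 RPKM of the serpin sums of 303 and 354 RPKM. Of the 20 clade B serpins listed as inhibitors of granule and lysosomal proteases, 6 were tested. Of these, 1 was higher and 3 were lower in TAM than in Fibroblast (17.4% and 17.3% of all genes), and 2 were higher and 0 lower in TAM than in LLC (15.4% and 27.5%). Between Fibroblast and LLC, 3 were higher and 0 lower in Fibroblast (13.0% and 25.7%). Serpinb6a, which inhibits cathepsin G and other serine proteases inside cells, made up most of it. It was at 450.3 and 412 RPKM in Fibroblast, 199 and 158 RPKM in TAM, 152 and 139.7 RPKM in LLC, and 139 and 176 RPKM in Total tumor. It was the most evenly spread of the abundant serpins, with Fibroblast 2.41 times TAM and 2.96 times LLC. TAM minus Fibroblast was -1.27 (SE 0.28, adjusted p = 0.00951), and the call ended without Fibroblast 1 (adjusted p = 0.0873), Fibroblast 2 (0.0657) or TAM 2 (0.0757), and without LLC 2 and TAM 2 (0.187), in a range from 0.000380 to 0.187. Fibroblast minus LLC was 1.56 (SE 0.28, adjusted p = 0.00482) and ended without Fibroblast 1 (0.0531) and without LLC 2 and TAM 2 (0.0959), in a range from 0.000191 to 0.0959. TAM minus LLC was 0.28 (adjusted p = 0.456, 95% interval -0.37 to 0.94).

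Serpinb8, an intracellular serpin that can inhibit furin, was the serpin highest in TAM. It was at 20.2 and 15.4 RPKM in TAM, 3.19 and 3.17 RPKM in Total tumor, 1.82 and 2.81 RPKM in LLC, and 1.56 and 1.85 RPKM in Fibroblast. Both TAM libraries stood above all others. TAM minus Fibroblast was 2.79 (SE 0.29, adjusted p = 0.000233), TAM minus LLC 2.51 (SE 0.29, adjusted p = 0.000419) and TAM minus Total tumor 2.16 (adjusted p = 0.00185), and all 3 held under all 20 alternatives. Its other transcript in the table gave 15.3 and 15.9 RPKM in TAM and at most 3.18 RPKM elsewhere. Its promoter, at chr1:107589756-107590005 on the plus strand in GRCm38.p6, is shown as that of the serpin highest in TAM.
Serpinb8: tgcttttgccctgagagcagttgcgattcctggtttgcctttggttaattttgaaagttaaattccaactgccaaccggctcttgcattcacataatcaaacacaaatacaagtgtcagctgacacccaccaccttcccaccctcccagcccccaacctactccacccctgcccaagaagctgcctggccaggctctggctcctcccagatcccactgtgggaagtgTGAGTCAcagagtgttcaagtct
The capitals mark an AP-1 element, TGAGTCA, that begins 23 bases before the start. This motif occurs in 4.46% of all 32851 promoters, and Serpinb8 is the only one of the 15 serpins with a promoter that holds it.

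Serpinb1a inhibits elastase, cathepsin G and proteinase 3 of neutrophils. It was at 24.6 and 30.1 RPKM in Fibroblast, 5.25 and 7.01 RPKM in TAM, 4.02 and 2.55 RPKM in Total tumor, and 0.654 and 0.609 RPKM in LLC, and the 4 groups were fully apart. Fibroblast minus LLC was 4.11 (SE 0.30, adjusted p = 0.000272) and TAM minus Fibroblast -2.00 (SE 0.30, adjusted p = 0.00127), under all 20 alternatives. TAM minus LLC was 2.12 (SE 0.30, adjusted p = 0.00104) and ended without LLC 2 and TAM 2 (adjusted p = 0.0607, range 0.000427 to 0.0607). Of its neutrophil targets, Ctsg was listed at 0 in all 8 libraries and Elane was not tested. Prtn3, proteinase 3, was at 2.59 and 1.31 RPKM in Fibroblast, 2.42 and 1.39 RPKM in TAM and 0.104 and 2.19 RPKM in Total tumor, and was listed at 0 in both LLC libraries. It was called higher than in LLC both in TAM (1.52, adjusted p = 0.0418) and in Fibroblast (1.53, adjusted p = 0.0445).

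Serpinb9, which protects cells from granzyme B, was called in none of the comparisons. It was at 9.04 and 11.2 RPKM in LLC, 8.56 and 9.0 RPKM in Fibroblast, 3.65 and 6.71 RPKM in TAM, and 9.19 and 6.74 RPKM in Total tumor. TAM minus LLC was -0.89 (adjusted p = 0.0572, 95% interval -1.63 to -0.14). Serpinb9b was at 6.55 and 4.05 RPKM in Fibroblast, 1.30 and 0.727 RPKM in LLC, and 0 and 0.580 RPKM in TAM. Serpinb9b needed its Fibroblast values to enter the test. It was lower in TAM than in Fibroblast (-2.30, SE 0.36, adjusted p = 0.00169). Its call against LLC (1.63, adjusted p = 0.0103) ended without LLC 2 (0.0676), without Fibroblast 1 (0.101), without LLC 2 and TAM 2 (0.101), and with a pseudocount of 0.1 (0.0947), in a range from 0.00246 to 0.101. Serpinb6b, between 1.03 and 5.34 RPKM in all libraries, was called in no comparison.

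**Figure D4:**
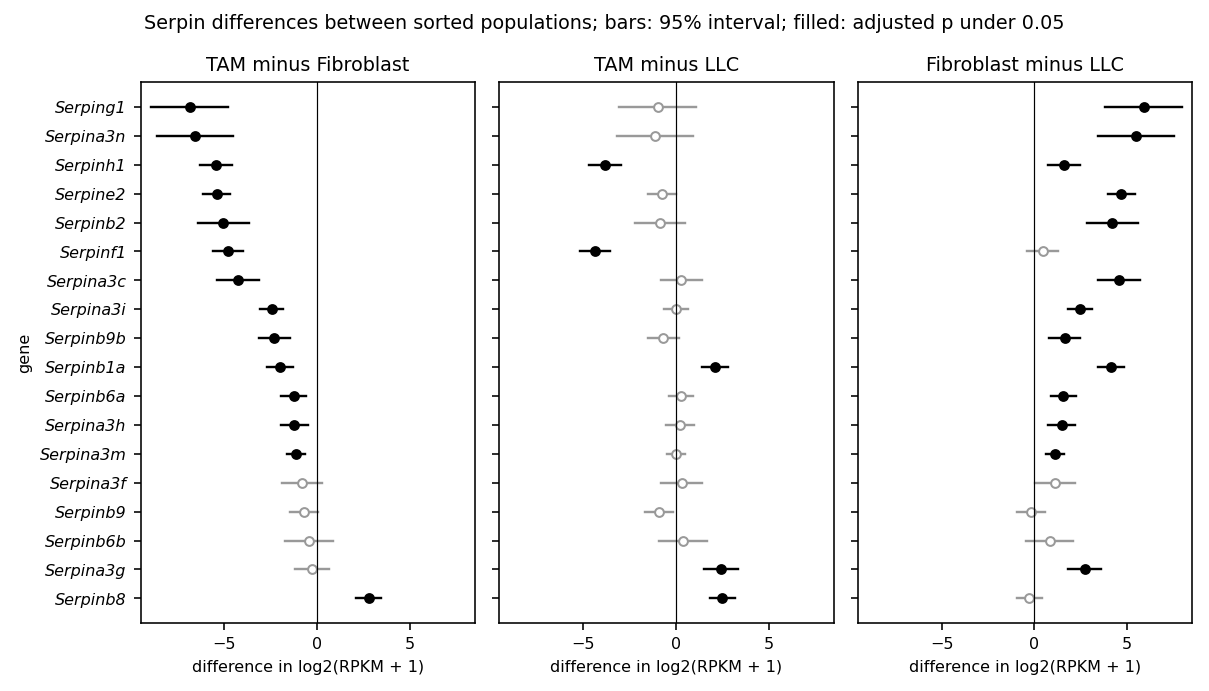
Differences in log2(RPKM + 1) between sorted groups for 18 tested serpins, with 95% intervals; filled points are called at an adjusted p under 0.05. For TAM minus Fibroblast the points filled to the right of 0 are 1 (Serpinb8), for TAM minus LLC 2 are filled to the left and 3 to the right, and for Fibroblast minus LLC 0 are filled to the left.

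No serpin was highest in Total tumor, by the rule of being called higher than in all 3 sorted groups, which 0.158% of all tested genes met. For 19 of the 21 detected serpins both whole-tumor values lay within the range of the 6 sorted libraries, and the 2 exceptions were Serpinb6a and Serpinb6b, each with 1 value just below that range. The share of all genes within their sorted range was not computed, so this count cannot be read as a trait of the family. Fibroblast exceeded Total tumor for 15 of 19 serpins and was below it for 0, where 12.1% of all genes were higher and 30.0% lower. Without the 4 that reached 1 RPKM in Fibroblast only, this held for 11 of 15, Serpinb9b among them. The whole-tumor mean was 2.71% of the Fibroblast mean for Serping1, 2.74% for Serpina3n and 4.33% for Serpine2, but 28.0% for Serpinh1 and 67.2% for Serpinf1. LLC and Total tumor differed for 0 of 19 serpins (0.0526% of all genes higher and 2.30% lower), with 2 of them at an unadjusted p under 0.05, and Serpinb1a came nearest (-1.37, adjusted p = 0.0654). TAM was higher than Total tumor for Serpinb8 and Serpina3g and lower for Serpinf1, Serpinh1 and Serpine2, with 11.3% of all genes higher and 23.9% lower. The calls of Serpinf1 (-4.19, adjusted p = 0.000494) and Serpinh1 (-3.60, adjusted p = 0.000842) held under all 20 alternatives. Those of Serpine2 (-1.30, adjusted p = 0.0168) and Serpina3g (1.29, adjusted p = 0.0359) ended under several. For Serpine2 these included leaving out TAM 1 (adjusted p = 0.0924) or TAM 2 (0.0576), in a range from 0.0131 to 0.0924. For Serpina3g they included leaving out Total tumor 1 (0.0784), Total tumor 2 (0.0507), LLC 2 (0.0505), TAM 1 (0.0666) or TAM 2 (0.190), in a range from 0.0125 to 0.255. The serpins higher in Fibroblast than in Total tumor numbered 7 without Fibroblast 1 and 8 without Fibroblast 2. Those lower in TAM numbered 5 without Total tumor 2, and 1 was lower in LLC without Total tumor 1. With other scalings the split of all genes moved here too: 28.8% of the Fibroblast minus Total tumor calls were higher, against 56.8% with upper-quartile rescaling, and 32.2% of the TAM minus Total tumor calls, against 50.4% with quantile normalization.

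Some serpin values in LLC and TAM ran close to those of fibroblast markers in the same libraries, and the part of such transcripts in these results was not tested. As a percent of the Fibroblast mean, Serping1 was at 0.861% and 3.08% in LLC and 0.275% and 2.21% in TAM. Col1a1 was at 1.60% and 4.03% in LLC and 0.378% and 2.58% in TAM, and Serpina3n at 1.00% and 4.44% and at 0.323% and 2.41%. Col1a2 had the same order of the 4 libraries as these 3 genes, whereas the other 6 fibroblast markers were higher in LLC 1 than in TAM 2. Serpine2 was at 1.48% and 3.57% in LLC and 0.627% and 1.03% in TAM. In TAM the 8 fibroblast markers lay between 0.373% and 1.32% in library 1 and between 1.52% and 3.15% in library 2. Serpinf1 (3.37% and 3.52%), Serpinb6a (46.2% and 36.7%), Serpinb1a (19.2% and 25.6%) and Serpina3g (62.1% and 95.9%) were above that range in both TAM libraries. In LLC the markers spread more widely, from 1.13% for Col1a2 to 67.6% for Lum in library 1 and from 3.92% to 65.8% in library 2. There Serpinf1 was at 82.8% and 64.3% and Serpinh1 at 33.6% and 31.9%.

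**Figure D5:**
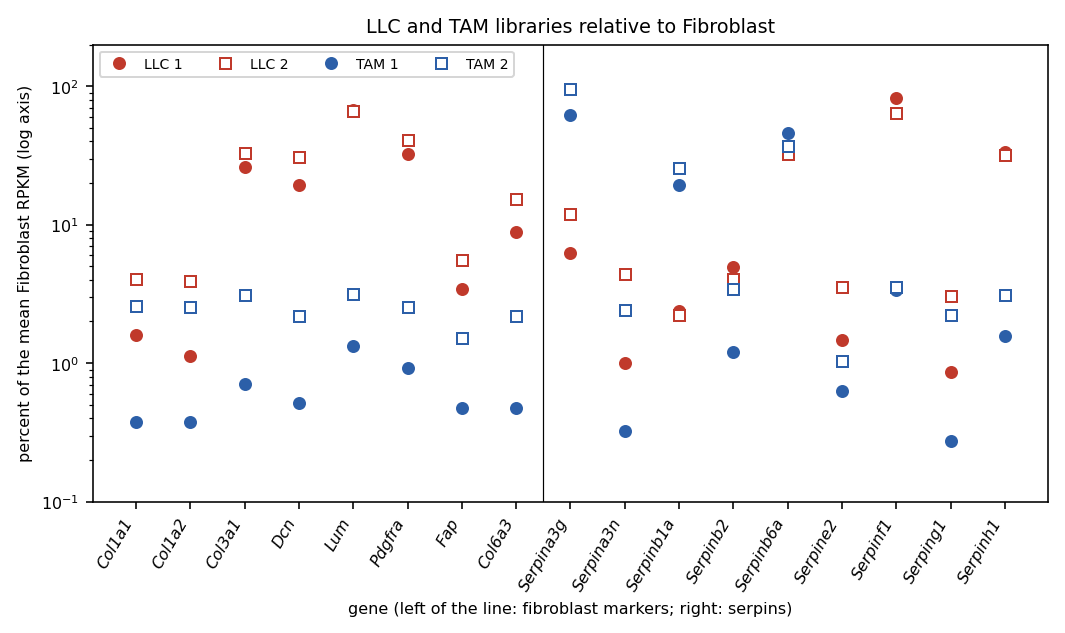
Level of 8 fibroblast markers (left of the line) and 9 serpins (right) in the LLC and TAM libraries, as a percent of the Fibroblast mean on a logarithmic axis; filled circles are library 1 and open squares library 2. Serping1 and Serpina3n lie near Col1a1 and Col1a2 in all 4 libraries, whereas Serpinb6a, Serpinb1a and Serpina3g lie above every marker in TAM.

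Proteases that serpins inhibit were higher in TAM in part and lower in part. Of 19 tested target proteases, 5 were higher and 5 lower in TAM than in Fibroblast (17.4% and 17.3% of all genes), 9 were higher and 4 lower in TAM than in LLC (15.4% and 27.5%), and 5 were higher and 3 lower in Fibroblast than in LLC (13.0% and 25.7%). The medians were 0.65, 1.27 and 0.35. Among those higher in TAM than in Fibroblast were Ctss, a lysosomal cysteine protease (6.19, adjusted p = 0.000623), the clotting factor F10 (4.50, adjusted p = 0.000184), and the caspases Casp8 (2.31) and Casp1 (1.84). Ctss was at 2846 and 2627 RPKM in TAM and 29.4 and 45.0 RPKM in Fibroblast. Ctsk, the cathepsin best known for cutting collagen, was lower in TAM than in Fibroblast (-3.72, adjusted p = 0.000188), at 16.0 and 15.2 against 199.8 and 236 RPKM.

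Of 13 cofactors and uptake receptors, 3 were higher and 8 lower in TAM than in Fibroblast (17.4% and 17.3% of all genes), 2 were higher and 5 lower in TAM than in LLC (15.4% and 27.5%), and 5 were higher and 4 lower in Fibroblast than in LLC (13.0% and 25.7%). The medians were -1.89, -0.25 and 0.18. Lrp1, the receptor that clears serpin and protease complexes from outside the cell, was at 214 and 246 RPKM in Fibroblast, 109 and 150.0 RPKM in TAM, and 86.7 and 111 RPKM in LLC (TAM minus Fibroblast -0.84, adjusted p = 0.0485). Vtn, the adhesive protein vitronectin, was lower in TAM than in Fibroblast (-3.33, adjusted p = 0.000143), as were the heparan sulfate proteoglycan Hspg2 (-4.70), the receptor Vldlr (-3.27) and the thrombin receptor Thbd (-2.45). Plaur (2.38), Sdc4 (1.27) and Lrp8 (1.15) were higher.

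The 42 serpins that stayed under 1 RPKM in all libraries are listed here as not detected, and 25 of them were at 0 throughout. They included the secreted serpins Serpina1a to Serpina1f, Serpina5, Serpina6, Serpina7, Serpina11, Serpina12, Serpinc1 (antithrombin), Serpind1 (heparin cofactor II) and Serpinf2 (alpha-2-antiplasmin). Serpina9 and Serpina4-ps1 were not detected either. Of the Serpina3 row, Serpina3a, Serpina3b, Serpina3j and Serpina3k were not detected. In clade B the 20 were Serpinb1b, Serpinb1c, Serpinb3a to Serpinb3d, Serpinb5, Serpinb6c to Serpinb6e, Serpinb7, Serpinb9c to Serpinb9g, Serpinb10, Serpinb11, Serpinb12 and Serpinb13. Serpine3 and Serpini2 completed the list. The detection threshold parted Serpinb7, at up to 0.921 RPKM, from Serpini1 (neuroserpin), at up to 1.04 RPKM in Fibroblast 1, and Serpina10, at up to 1.08 RPKM in Fibroblast 2. At this depth such values rest on few reads, so a serpin that was not detected may still be expressed at a low level.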

How the data were processed

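The data are polydT-primed RNA sequencing libraries, made from 200 ng of RNA each and read at 50 bp per the labels' protocols. The deposited table holds RPKM values that the authors computed per RefSeq transcript. The submitters' processing notes name STAR, HOMER and mm9, and the sources used here give no further settings. Genes without a name were left out (3 of 31645 transcripts). Depth was estimated from the steps of low RPKM values, of which 57.4% to 60.6% lay within 0.05 of a whole read, so no count test was run and precision rests on 2 libraries per group.

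Genes at 1 RPKM or more in at least 2 libraries (13311) were compared on log2(RPKM + 1) with limma 3.58.1 in R 4.3.3, in 1 fit over the 8 libraries with a mean-variance trend (4 residual and 3.62 prior degrees of freedom). The 6 pairs of groups were tested, and p-values were adjusted by Benjamini-Hochberg over all tested genes. Calculations were checked on simulated data. The 20 alternatives covered the pseudocount, filter, scaling, trend, libraries in the fit, replicate block, transcript choice, transcript length and each library left out; 1, without LLC 2 and TAM 2, was added after seeing the data. Shared 50-base windows came from GENCODE M21 transcripts, promoters from RefSeq on GRCm38.p6, where 15 of 21 detected serpins matched. Counts and sums cover the whole family, of which 1 serpin is not reported here by name. Named were the other detected serpins, and from each other list up to 4 called genes per direction with the largest differences, plus Plat, Plau, Lrp1, C1ra, C1s1 and Col1a1. Ctsg, Elane, Prtn3, Gzma, Gzmb, Gzmk, Mcpt4, Cma1 and Tpsab1 were chosen after their values were seen. The members and lists were chosen with earlier results of these data known.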

Additional observations from a re-analysis of the deposited data

How the results depend on the processing

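Of 54 called serpin differences, 36 held under all 20 alternatives that could be computed for them, 18 ended under at least 1, and 0 reversed. Serpins that reached 1 RPKM in too few libraries under an alternative have no value there. Without LLC 2 and TAM 2, the serpins higher in TAM than in LLC numbered 1, those higher in Fibroblast than in LLC 8, those higher in TAM than in Total tumor 1, and those highest in Fibroblast 7. Serpins higher in TAM than in Total tumor numbered 1 with a pseudocount of 0.1, with no filter and with only the groups compared in the fit, and 4 with a length correction. With a pseudocount of 0.1, 1 serpin was lower in LLC than in Total tumor. Leaving out 1 library at a time gave 9 to 14 serpins lower in TAM than in Fibroblast, 2 to 4 lower in TAM than in LLC, 6 to 14 higher in Fibroblast than in LLC, 1 to 2 higher and 2 to 5 lower in TAM than in Total tumor, 0 to 1 lower in LLC than in Total tumor, 7 to 15 higher in Fibroblast than in Total tumor, and 5 to 13 highest in Fibroblast. Fewer samples, and fewer serpins tested without a Fibroblast library, are part of these changes by construction; the cause was otherwise not tested.

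The labels give no pairing. Deviations of same-numbered libraries correlated across genes at 0.16 to 0.27 between sorted groups and at -0.36 to -0.18 with Total tumor, and library 1 was the deeper one in every group. The numbers were therefore not treated as pairs. A replicate block ended 0 calls and gave 15 serpins higher in Fibroblast than in LLC (14 without it), 1 higher and 14 lower in TAM than in Fibroblast, 3 higher and 2 lower in TAM than in LLC, and 13 highest in Fibroblast. With 2 libraries per group, and 1 read worth 0.0482 to 0.117 RPKM on a 2 kb transcript, serpin values under about 1 RPKM rest on few reads. With no filter, 16 serpins were lower in TAM than in Fibroblast and 16 were higher in Fibroblast than in LLC.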

Other observations

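Mcpt4, Cma1 and Gzmb, proteases of mast cells and cytotoxic cells that serpins face, had their highest values in whole tumors. Mcpt4, a chymase of mast cells, was at 11.5 and 18.7 RPKM in Total tumor and at most 3.56 RPKM in any sorted library. Cma1, another chymase, was at 7.84 and 11.5 RPKM in Total tumor, 4.91 and 1.88 RPKM in TAM, and at most 0.898 RPKM in Fibroblast and LLC. Gzmb, granzyme B of cytotoxic lymphocytes, was at 15.8 and 5.55 RPKM in Total tumor and at most 2.69 RPKM in any sorted library, while its inhibitor Serpinb9 was between 3.65 and 11.2 RPKM in all 8 libraries. Not every such protease followed: Gzma, granzyme A, was at 7.44 and 1.46 RPKM in Total tumor but 2.01 RPKM in TAM 1, the mast cell tryptase Tpsab1 was at 0.733 RPKM in Total tumor 1, just below its level in TAM 1, and Gzmk and Ctsg were listed at 0 throughout. These genes were chosen after their values were seen. The summed mast cell and T and NK cell markers were also highest in Total tumor.

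On the RefSeq map of GRCm38.p6 most of the family lies on chromosomes 12, 13 and 1, and the rest is spread over other chromosomes. Of the abundant members, Serping1 is on chromosome 2, Serpinh1 on chromosome 7 and Serpinf1 on chromosome 11. Chromosome 12 carries 24 of the serpins in the table, of which 8 were detected, chromosome 13 carries 15, of which 5 were detected, and chromosome 1 carries 14, of which 3 were detected.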
